A study of Mus musculus with 60 samples.

Results

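Most replacement histone variants are made throughout the cell cycle, largely from polyadenylated messages of genes that lie outside the histone clusters. The 8 genes described here are H3f3a and H3f3b, which both encode H3.3, H2afz and H2afv, which encode H2A.Z.1 and H2A.Z.2, H2afy and H2afy2, which encode macroH2A1 and macroH2A2, H2afx for H2A.X and Cenpa for CENP-A. They were taken as a list of symbols, and all 8 were found among the 55487 genes counted. None was lost to the filter on low counts: the lowest count in any of the 60 libraries was 84 reads for H2afy2 and at least 315 for the other 7 genes.

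RNA came from mouse embryonic stem cells (mESCs) of the E14JU line, in 20 groups of 3 libraries. Every group carried POLE4-dTAG, a degron fused to POLE4, which is a subunit of the leading strand polymerase that hands parental histones to the new strand. The line was either wild type for Mcm2 (WT) or a single clone with MCM2-2A, a mutation of the histone-binding region of the helicase subunit MCM2, which passes parental histones to the lagging strand. Cells in serum and LIF received DMSO (Ctrl) or 1 µM dTAG, which removes the tagged POLE4 protein (dPOLE4). They were collected after 24 h (T0) or went on to medium with retinoic acid (RA) and without LIF for 12 h (T12), 24 h (T24) or 60 h (T60). A change from T0, called a response to RA below, therefore cannot be told apart from one to the loss of LIF. A separate experiment collected both lines after 96 h with DMSO or dTAG and no RA. The groups with the mutation are called Ctrl MCM2-2A and dPOLE4 MCM2-2A.

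H3.3 is placed at active genes and enhancers by the HIRA complex and at telomeres and silent repeats by DAXX and ATRX, independently of DNA replication. H2A.Z sits on nucleosomes that flank promoters and enhancers and is put there by the SRCAP and p400 complexes, while macroH2A carries a large extra domain, is found in silent chromatin and is known to be low in pluripotent cells. H2A.X is the variant phosphorylated around DNA breaks, and CENP-A replaces H3 at centromeres, where its chaperone HJURP loads it after mitosis.

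The 48 libraries at T0 and under RA held 10461077 to 46609151 counts each, and the 12 at 96 h held 7126100 to 23598266. Levels are given as normalized counts, in CPM (counts scaled to the library's total) after TMM scaling, and no spike-in counts were used, so that each level is relative to the other RNA of its library. The summed level of 8 pluripotent marker genes was 3572 to 3704 CPM in Ctrl at T0 and 282 to 375 CPM at T60, while that of 4 primitive endoderm markers was 12.2 to 22.3 and 267 to 330.0 CPM and that of 3 neural markers 112 to 135 and 287 to 314 CPM. None of these genes was at 0 in these libraries. In the same groups 5 fibroblast markers summed to 44.6 to 58.2 and 327 to 454 CPM, and 2 markers of 2-cell-like cells to 5.01 to 15.1 and 144 to 193 CPM. Single genes made up most of some sums. Nes had medians of 109 and 270.1 CPM among the neural markers. Of the fibroblast markers, Col1a1 had medians of 43.7 and 211 CPM and Col1a2 of 4.65 and 146 CPM, while Thy1 fell from 3.87 to 1.55 CPM. Dcn and Lum stayed below 4 CPM. The 4 RA response markers summed to 4.79 to 5.50 and 361 to 504 CPM, and 3 trophoblast markers to 10.7 to 15.8 and 4.93 to 8.54 CPM. In Ctrl MCM2-2A at T60 the pluripotent markers summed to 654 to 825 CPM. Fewer cells of a type and less RNA per cell cannot be told apart in such bulk samples. Pole4 mRNA had a median of 48.7 CPM in Ctrl and 45.6 CPM in dPOLE4 over 12 libraries each, and of 30.0 and 26.9 CPM in the MCM2-2A line. dTAG acts on the protein, so the mRNA does not check the depletion. Mcm2 mRNA had a median of 458 CPM in Ctrl and 253 CPM in Ctrl MCM2-2A over 12 libraries each, and of 525 and 300 CPM at 96 h over 3 libraries each.

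The paired genes lie on different chromosomes in mm10. H3f3a (ENSMUSG00000060743) is at chr1:180800832-180813943 and H3f3b (ENSMUSG00000016559) at chr11:116021912-116027962, both on the minus strand. H2afz (ENSMUSG00000037894) is at chr3:137864487-137866922 on the plus strand and H2afv (ENSMUSG00000041126) at chr11:6427229-6444443 on the minus strand, so that H3f3b and H2afv share chromosome 11. H2afy is at chr13:56073619-56136361, H2afy2 at chr10:61738665-61784147, H2afx at chr9:44334694-44336077 and Cenpa at chr5:30666777-30674830.

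Whether reads can be told apart between paralogs depends on how far their coding sequences have diverged. H3f3a and H3f3b encode the same protein, with 0 residues that differ, but 95 of 411 coding bases (76.9% identical) and 83 codons differ, and their longest identical run is 23 bases. H2afz and H2afv differ at 81 of 387 coding bases (79.1% identical), 74 codons and 3 residues, with a longest identical run of 14 bases. The first 150 coding bases of the 4 genes, read from the GENCODE transcripts, are shown to make this visible, with the 32 bases that differ between the H3.3 genes and the 34 that differ between the H2A.Z genes in capitals.
H3f3a: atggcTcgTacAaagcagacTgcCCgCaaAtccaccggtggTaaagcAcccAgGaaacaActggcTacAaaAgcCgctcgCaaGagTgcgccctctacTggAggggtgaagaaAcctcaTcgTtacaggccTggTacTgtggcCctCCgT
H3f3b: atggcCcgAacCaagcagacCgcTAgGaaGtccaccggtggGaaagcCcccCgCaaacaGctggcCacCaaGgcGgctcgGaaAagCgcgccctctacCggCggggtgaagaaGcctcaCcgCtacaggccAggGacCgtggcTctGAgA
H2afz: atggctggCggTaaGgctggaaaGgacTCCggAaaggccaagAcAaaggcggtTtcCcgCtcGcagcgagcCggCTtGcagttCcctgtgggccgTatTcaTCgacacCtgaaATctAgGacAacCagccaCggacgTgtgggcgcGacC
H2afv: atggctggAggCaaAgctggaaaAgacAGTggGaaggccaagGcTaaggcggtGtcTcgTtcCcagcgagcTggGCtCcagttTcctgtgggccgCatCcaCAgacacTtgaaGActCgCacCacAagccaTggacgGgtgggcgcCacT

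Processed copies of H3f3a took few of the reads. H3f3a held 325439 counts over the 60 libraries, against 847 for H3f3a-ps1, 211 for H3f3a-ps2, 263 for H3f3c and 1342 for the overlapping antisense gene H3f3aos.

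The 2 H2A.Z genes moved in opposite directions in RA, as described further on, and their promoters are shown for that reason, as RefSeq gives them on GRCm38.p6 from 250 bases before to 50 bases after the gene start. Capitals mark CCAAT, the box bound by NF-Y, on either strand. H2afz (RefSeq H2az1) reads from the plus strand of chr3:137864237-137864536 and H2afv (RefSeq H2az2) from the minus strand of chr11:6444394-6444693.
H2afz promoter: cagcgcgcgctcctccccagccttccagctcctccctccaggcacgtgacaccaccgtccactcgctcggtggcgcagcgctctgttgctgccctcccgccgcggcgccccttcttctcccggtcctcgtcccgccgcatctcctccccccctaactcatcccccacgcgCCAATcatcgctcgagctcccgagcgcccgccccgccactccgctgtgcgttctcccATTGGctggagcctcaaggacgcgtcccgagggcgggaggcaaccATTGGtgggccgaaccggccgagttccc
H2afv promoter: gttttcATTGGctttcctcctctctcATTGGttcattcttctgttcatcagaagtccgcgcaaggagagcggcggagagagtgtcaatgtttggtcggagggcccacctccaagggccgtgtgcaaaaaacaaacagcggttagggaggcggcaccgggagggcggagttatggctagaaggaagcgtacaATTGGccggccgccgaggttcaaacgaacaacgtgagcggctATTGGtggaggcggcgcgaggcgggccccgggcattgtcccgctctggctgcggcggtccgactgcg

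CCAAT occurred 3 times in the H2afz window and 4 times in that of H2afv, and 4 times in H3f3b, 2 in Cenpa, 1 in H3f3a, 1 in H2afy2 and 0 in H2afy. Of 32851 mouse promoter windows of the same length, 37.4% held at least 1 match, 3.37% at least 3 and 1.06% at least 4. GGGCGG, the box bound by SP1, occurred 6 times in H3f3a, 2 times in H2afz, 1 time in H2afv and 0 times in H3f3b, against 35.7% of all windows with at least 1. AGGTCA, the half-site read by RA receptors, had no match in the windows of these 7 genes, while H2afx was not matched, against 16.3% of all windows with at least 1. All motifs were searched on both strands, and a match is a description of the letters only. Matches were counted at every position, and some of the 6 GGGCGG matches in H3f3a share bases.

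Per length of merged exons (RPKM, CPM per kilobase), the most abundant member in Ctrl at T0 was H2afz at 328 ± 23.2 RPKM (mean ± SD, n = 3). H2afx followed at 243 ± 9.20 RPKM and H3f3b at 234 ± 3.95 RPKM, and the libraries of these neighbours overlapped. Below them, without overlap between neighbours, came H3f3a at 77.5 ± 3.92, H2afv at 44.7 ± 1.73, Cenpa at 16.4 ± 0.419, H2afy2 at 9.16 ± 0.522 and H2afy at 6.55 ± 0.469 RPKM. Each pair was thus uneven, with most H2A.Z message from H2afz and most H3.3 message from H3f3b. The order of the low genes depends on the length used: with the longest coding transcript in place of merged exons, Cenpa stood at 65.6 RPKM, above H2afv, and H2afy at 21.8 RPKM, above H2afy2 at 9.16 RPKM.

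Which variants change when mESCs leave pluripotency was asked by comparing RA time points with T0. The test was edgeR's quasi-likelihood F-test, fitted to all features that passed the filter, and adjusted p is Benjamini-Hochberg adjusted over all of them. A gene passed the test at an adjusted p below 0.01 and is called DE where its log2 fold change was also larger in size than 0.58, which are the thresholds of the study's methods. The 3 comparisons of Ctrl at T12, T24 and T60 share the T0 libraries and are not independent of each other.

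After 60 h of RA, H2afy2, H2afy and H2afv rose and H2afz fell. Of the 8 genes, 3 were DE higher and 1 DE lower in Ctrl, and 6 passed the test. The background was high, since 50.6% of all 18082 features tested were DE and 66.7% passed. H3f3b and H2afx rose by less than the fold change threshold, while H3f3a and Cenpa did not pass. The median log2 fold change of the 8 genes was 0.34, beside -0.013 over all features.

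**Figure D1:**
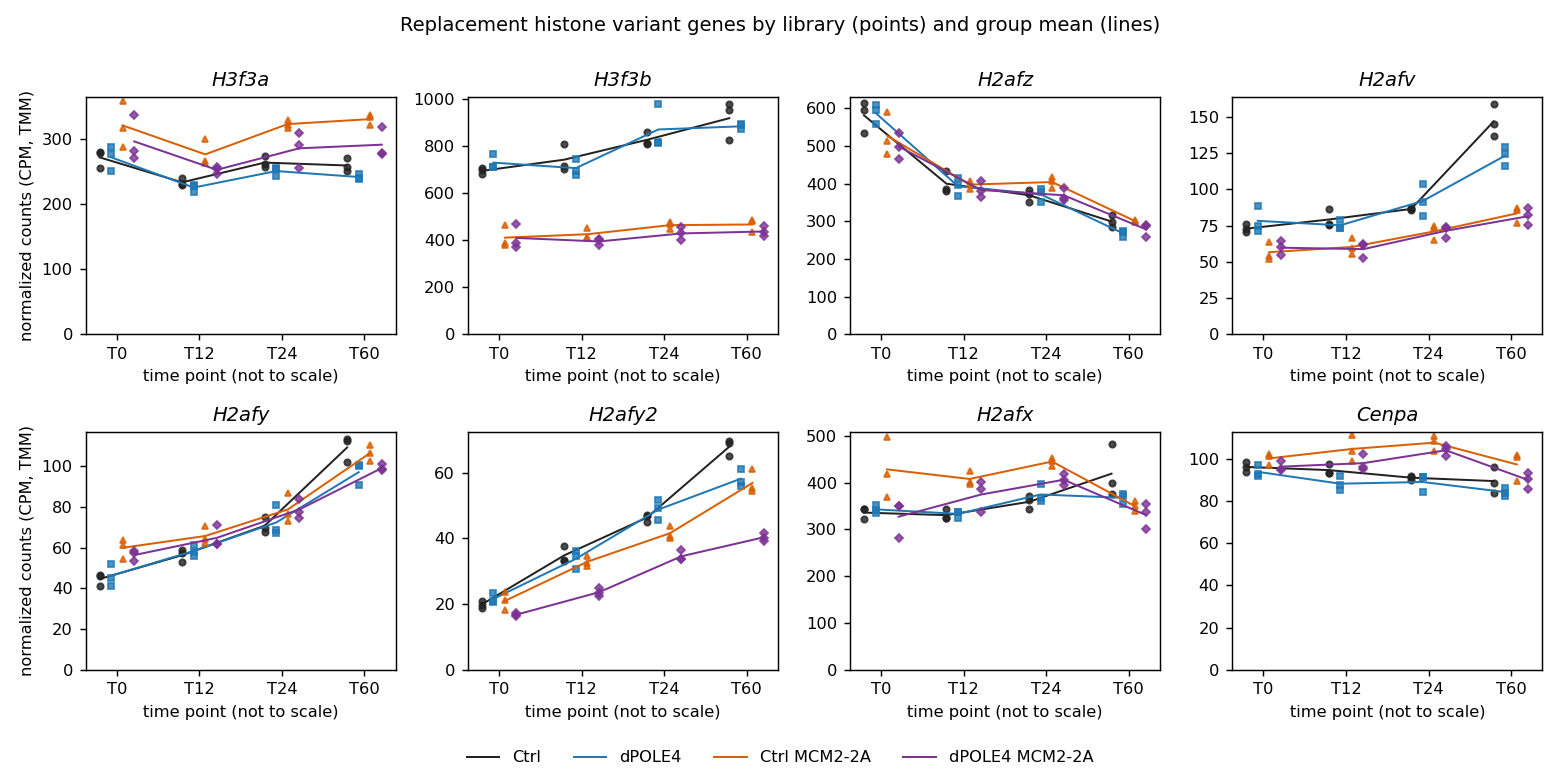
Normalized counts (CPM after TMM scaling) of the 8 genes in each of 48 libraries (points) and their group means (lines) at T0, T12, T24 and T60, for Ctrl, dPOLE4, Ctrl MCM2-2A and dPOLE4 MCM2-2A. H2afz falls from 582 to 299.8 CPM in Ctrl while H2afv, H2afy and H2afy2 rise, and both MCM2-2A groups lie below the WT groups for H3f3b at every time.

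H2afz, the main source of H2A.Z in mESCs, was at 614, 596 and 535 CPM in the 3 Ctrl libraries at T0 and at 316, 285 and 298 CPM at T60. The groups did not overlap, and the log2 fold change was -0.98 ± 0.068 (SE, adjusted p = 4.88e-09). H2afv was at 76.0, 70.4 and 72.4 CPM at T0 and at 159, 137 and 145 CPM at T60, again without overlap, with a log2 fold change of 0.99 ± 0.066 (SE, adjusted p = 2.62e-09). The H2A.Z genes therefore moved in opposite directions by nearly the same factor, 0.508 for H2afz and 1.99 for H2afv.

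H2afz had already fallen at T12, when its libraries were at 387, 433 and 381 CPM, all below those at T0. They gave a log2 fold change of -0.54 ± 0.069 (SE, adjusted p = 9.72e-05). H2afv was at 75.9, 86.6 and 75.2 CPM, and its log2 fold change of 0.12 ± 0.067 (SE, adjusted p = 0.196) did not pass. At T24 H2afv had risen by 0.25 ± 0.047 (SE, adjusted p = 0.000427), a call lost with all groups of the experiment in the fit (adjusted p = 0.0195), and H2afz stood at -0.65 ± 0.053 (SE, adjusted p = 1.18e-07). Per length, the sum of both genes was 372 ± 23.9 RPKM at T0, 274 ± 20.1 at T12, 261 ± 9.45 at T24 and 259 ± 15.7 at T60 (n = 3 each). The size of the change in this sum depends on the length used. With the longest coding transcripts H2afz was at 346 RPKM at T24 and 280.5 at T60, and H2afv at 53.0 and 89.9 RPKM. With merged exons H2afz was at 208 and 169 RPKM and H2afv at the same levels as above. By either length H2afz fell by more than H2afv rose, and by coding transcripts its fall was larger.

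The macroH2A genes rose at all 3 times. H2afy2, the gene of macroH2A2 and the lowest of the 8 in CPM, was at 18.8, 21.1 and 19.9 CPM at T0, 33.6, 37.8 and 33.3 at T12, 45.0, 47.2 and 46.8 at T24 and 69.8, 65.1 and 69.1 CPM at T60. No time overlapped the next, and the log2 fold changes from T0 were 0.81, 1.22 and 1.75 ± 0.073 (SE, adjusted p = 1.64e-11). H2afy, the gene of macroH2A1, was at 40.9, 46.3 and 46.6 CPM at T0 and 112, 113 and 102 CPM at T60, without overlap. Its log2 fold change was 1.27 ± 0.071 (SE, adjusted p = 3.85e-10) at T60, 0.67 ± 0.060 (SE, adjusted p = 3.76e-07) at T24 and 0.33 ± 0.070 (SE, adjusted p = 0.00320) at T12, where leaving out Ctrl T0 replicate 1, 2 or 3 ended the call (adjusted p = 0.0190, 0.0105 and 0.0115). Their summed level per length was 15.7 ± 0.945 RPKM at T0 and 47.3 ± 1.1 RPKM at T60.

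Of the H3.3 genes, H3f3b was at 705, 682 and 697 CPM at T0 and 978, 826 and 953 CPM at T60, with a log2 fold change of 0.38 ± 0.068 (SE, adjusted p = 0.000125) and no overlap. H3f3a was at 278, 280.4 and 256 CPM and 250.2, 256 and 271 CPM, which overlapped, and its log2 fold change was -0.088 ± 0.061 (SE, adjusted p = 0.203). It was lowest at T12, with 231, 228 and 240.2 CPM and a log2 fold change of -0.22 ± 0.056 (SE, adjusted p = 0.0105), just short of the threshold. DESeq2 gave an adjusted p of 0.00282 for it there, and leaving out Ctrl T12 replicate 2 gave 0.00721.

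H2afx, the gene of the damage-signalling variant, was at 343, 344 and 321 CPM at T0 and 483, 375 and 399 CPM at T60, with a log2 fold change of 0.30 ± 0.080 (SE, adjusted p = 0.00339). Replicate 1 at T60 was the highest, and leaving out Ctrl T0 replicate 3 ended the call (0.27, adjusted p = 0.0168). Cenpa was at 93.7, 96.2 and 98.6 CPM at T0 and 96.2, 83.8 and 88.3 CPM at T60, which overlapped, with a log2 fold change of -0.12 ± 0.063 (SE, adjusted p = 0.0911). CENP-A message is known to peak in G2, and in the same comparison 10 of 12 G2/M genes fell and 1 rose, with a median of -0.40, where 66.7% of all features passed. Of 8 S phase genes 6 fell, with a median of -0.54, beside -0.013 over all features. Whether a change in cell cycle phase bears on Cenpa or H2afx was not tested.

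At T12, 1 of the 8 genes was DE higher and 0 were DE lower, and 3 passed, against 11.3% of all features DE and 20.1% passed. With DESeq2 H3f3a passed as well. At T24, 2 were DE higher and 1 DE lower and 5 passed, against 21.8% DE and 42.7% passed.

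The same comparison was made in the other 3 sets of cells. In dPOLE4, 4 of the 8 genes were DE (3 higher, 1 lower; background 48.1%) and 7 passed (background 66.6%), with log2 fold changes of -1.15 for H2afz, 0.64 for H2afv, 1.04 for H2afy and 1.41 for H2afy2. H3f3a (-0.19) and Cenpa (-0.18) passed in dPOLE4, but leaving out any 1 of the 3 dPOLE4 T60 libraries ended both calls, with an adjusted p of up to 0.0338 and 0.0379, and for Cenpa leaving out dPOLE4 T0 replicate 3 did so too (0.0271). DESeq2 also ended the call of Cenpa (adjusted p = 0.0151), and the fit of all groups that of H3f3a (-0.17, adjusted p = 0.0330). In Ctrl MCM2-2A, 3 genes were DE (2 higher, 1 lower; background 47.5%) and 4 passed (background 64.0%): H2afz at -0.79, H2afv at 0.57, H2afy at 0.85 and H2afy2 at 1.46. In dPOLE4 MCM2-2A the counts were also 3 DE (2 higher, 1 lower; background 42.2%) and 4 passed (background 53.3%), with -0.87, 0.42, 0.79 and 1.24 for the same 4 genes. H3f3b passed in Ctrl MCM2-2A without Ctrl MCM2-2A T0 replicate 1 (0.28, adjusted p = 0.000517) and with the filter of 10 counts in every library (0.26, adjusted p = 0.00757), and H2afx without Ctrl MCM2-2A T0 replicate 3 (-0.38, adjusted p = 0.000998). H2afz thus fell, and H2afv, H2afy and H2afy2 rose, in each of the 4 sets.

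**Figure D2:**
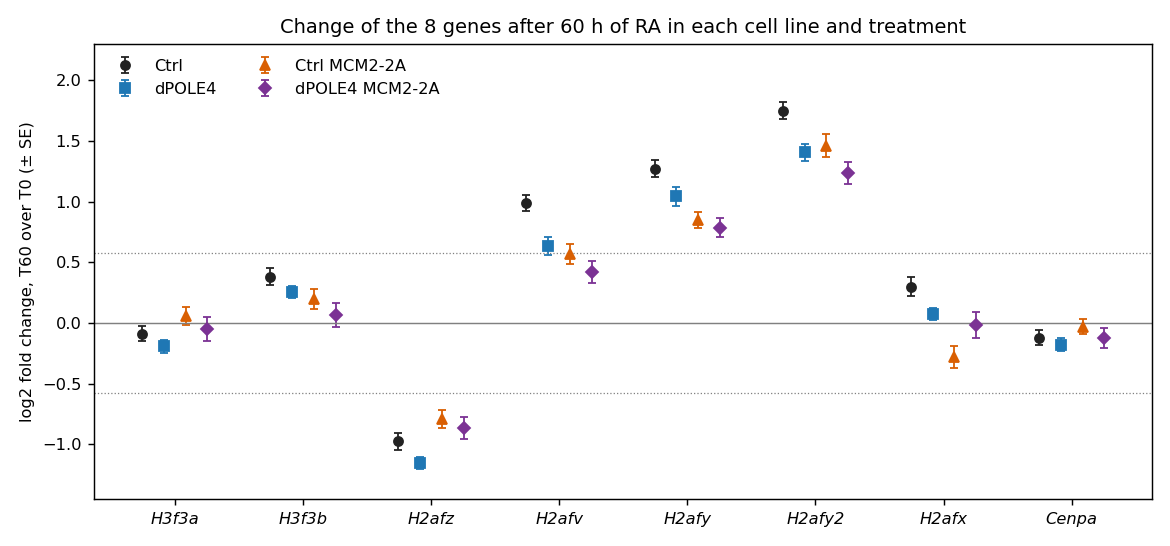
Log2 fold change from T0 to T60 with its SE for each of the 8 genes in Ctrl, dPOLE4, Ctrl MCM2-2A and dPOLE4 MCM2-2A, from edgeR fits of 3 against 3 libraries. Dotted lines mark 0.58 in either direction. H2afz lies between -1.15 and -0.79 in the 4 sets and H2afy2 between 1.24 and 1.75, while H2afx lies above 0 in Ctrl and below 0 in Ctrl MCM2-2A.

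By T60 the order of levels in Ctrl had changed. H3f3b at 309 ± 27.4 RPKM and H2afx at 303 ± 41.2 RPKM overlapped and stood above H2afz at 169 ± 8.93 RPKM, which was followed by H2afv at 89.9 ± 6.75, H3f3a at 73.9 ± 3.02 and H2afy2 at 31.3 ± 1.15 RPKM. H2afy at 16 ± 0.896 and Cenpa at 15.3 ± 1.07 RPKM overlapped. With the longest coding transcript H3f3a, at 91.2 RPKM, stood above H2afv, at 89.9 RPKM, and H2afy2, at 31.3 RPKM, was the lowest.

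Whether the response to RA differed between the lines was tested as an interaction in the 4 Ctrl groups at T0 and T60. The rise of H2afv and of H2afy was smaller in Ctrl MCM2-2A than in Ctrl, and H2afx had a positive log2 fold change in Ctrl and a negative one in Ctrl MCM2-2A. The difference of log2 fold changes (Ctrl MCM2-2A minus Ctrl) was -0.45 ± 0.11 (SE, adjusted p = 0.00442) for H2afv, -0.45 ± 0.098 (SE, adjusted p = 0.00254) for H2afy and -0.61 ± 0.13 (SE, adjusted p = 0.00194) for H2afx, so that 3 of 8 genes passed, against 12.9% of all features. It was -0.32 (adjusted p = 0.0537) for H2afy2, 0.15 (adjusted p = 0.291) for H2afz, -0.22 (adjusted p = 0.156) for H3f3b, 0.11 (adjusted p = 0.426) for H3f3a and 0.062 (adjusted p = 0.652) for Cenpa.

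In CPM, H2afv was at 63.9, 54.1 and 52.1 in Ctrl MCM2-2A at T0 and 85.9, 77 and 87.4 at T60, and H2afy at 61.4, 63.9 and 54.4 and 111, 103 and 106. At T60 the H2afy libraries of both lines overlapped, and the lines differed at T0. H2afx was at 497, 418 and 369 CPM in Ctrl MCM2-2A at T0 and 361, 339.6 and 349.7 CPM at T60, with a log2 fold change of -0.28 ± 0.090 (SE, adjusted p = 0.0138), which did not pass with edgeR and gave 0.00378 with DESeq2, 0.00324 with TMM on genes only and 0.00163 with all groups in the fit. In the same interaction test 21 of 67 replication-dependent histone genes were lower and 0 higher (background 12.9%), with a median of -0.50, beside -0.013 over all features. Of the 8 pluripotent markers, 4 were higher in this test, so that they fell less in Ctrl MCM2-2A, and 0 were lower. Sox2 went from a median of 316 to 28.6 CPM in Ctrl and from 332 to 21.7 CPM in Ctrl MCM2-2A. The part of these markers in the result was not tested.

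These 3 differences were near the threshold. Leaving out 1 of the 12 libraries ended the call of H2afv in 7 fits, those without Ctrl T0 replicate 2 or 3, Ctrl T60 replicate 1 or 3, or Ctrl MCM2-2A T60 replicate 1, 2 or 3 (adjusted p = 0.0154, 0.0133, 0.0238, 0.0162, 0.0119, 0.0333 and 0.0116). For H2afy it did so without Ctrl T60 replicate 1 or 2 or Ctrl MCM2-2A T60 replicate 2 or 3 (0.0132, 0.0135, 0.020 and 0.0151), and for H2afx without Ctrl MCM2-2A T60 replicate 2 or 3 (0.0129 and 0.0108). Of the 8 genes, 0 passed in the corresponding test of dPOLE4 against Ctrl (background 0.0104%) or of dPOLE4 MCM2-2A against Ctrl MCM2-2A (background 0.27%), with either edgeR or DESeq2. In these tests 2 and 0 of them had an unadjusted p below 0.05, beside 13.0% and 12.4% of all features.

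The lines were then compared directly, Ctrl MCM2-2A against Ctrl, at each of the 5 times. H3f3b, the main H3.3 gene, was lower in Ctrl MCM2-2A at all 5. At T0 it was at 705, 682 and 697 CPM in Ctrl and 465, 379.8 and 389 CPM in Ctrl MCM2-2A, and at T60 at 978, 826 and 953 and 488, 433 and 480.2 CPM. At 96 h it was at 759, 649.9 and 624 and 373, 341 and 337 CPM. The groups did not overlap at any time, and the log2 fold changes were -0.77, -0.79, -0.81, -0.97 and -0.94 at T0, T12, T24, T60 and 96 h, with SEs of 0.047 to 0.090 and adjusted p of at most 1.73e-05.

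H2afv was also lower in Ctrl MCM2-2A at every time, at 63.9, 54.1 and 52.1 CPM against 76.0, 70.4 and 72.4 CPM at T0, and passed each time. Its log2 fold changes were -0.38, -0.39, -0.26, -0.81 and -0.56, of which that at T60 (-0.81 ± 0.069, adjusted p = 3.34e-07) was DE. At T12 leaving out Ctrl T12 replicate 1 or Ctrl MCM2-2A T12 replicate 1 or 2 ended its call (adjusted p = 0.0110, 0.0240 and 0.0190). H2afz did not pass at any time with edgeR, with log2 fold changes from -0.22 to 0.16. It passed at T24 with DESeq2 (0.15, adjusted p = 0.00539), at 96 h with all groups of that experiment in the fit (-0.24, adjusted p = 0.00605) and at T0 without a filter (-0.18, adjusted p = 0.00918). It also did so without Ctrl MCM2-2A T0 replicate 1 at T0 (-0.23, adjusted p = 0.00659) and without Ctrl MCM2-2A T24 replicate 3 at T24 (0.18, adjusted p = 0.00562).

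Both lower genes lie on chromosome 11, and 80.4% to 84.6% of the tested genes of that chromosome had a log2 fold change below 0 at the 5 times. Their median log2 fold change was -0.48, -0.51, -0.49, -0.55 and -0.51 at T0, T12, T24, T60 and 96 h, while every one of the other 19 chromosomes had a median between -0.17 and 0.56, the highest being chromosome 15. In the comparisons of dPOLE4 with Ctrl and of RA with T0 the chromosome 11 median lay between -0.039 and 0.042. Less this median, H3f3b was at -0.30, -0.28, -0.32, -0.42 and -0.43, and H2afv at 0.093, 0.12, 0.24, -0.26 and -0.055. The subtraction was chosen after the data were seen and is a description without a test. The mutation, the lower median of Mcm2 mRNA, the clone and the state of chromosome 11 cannot be told apart with 1 clone.

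**Figure D3:**
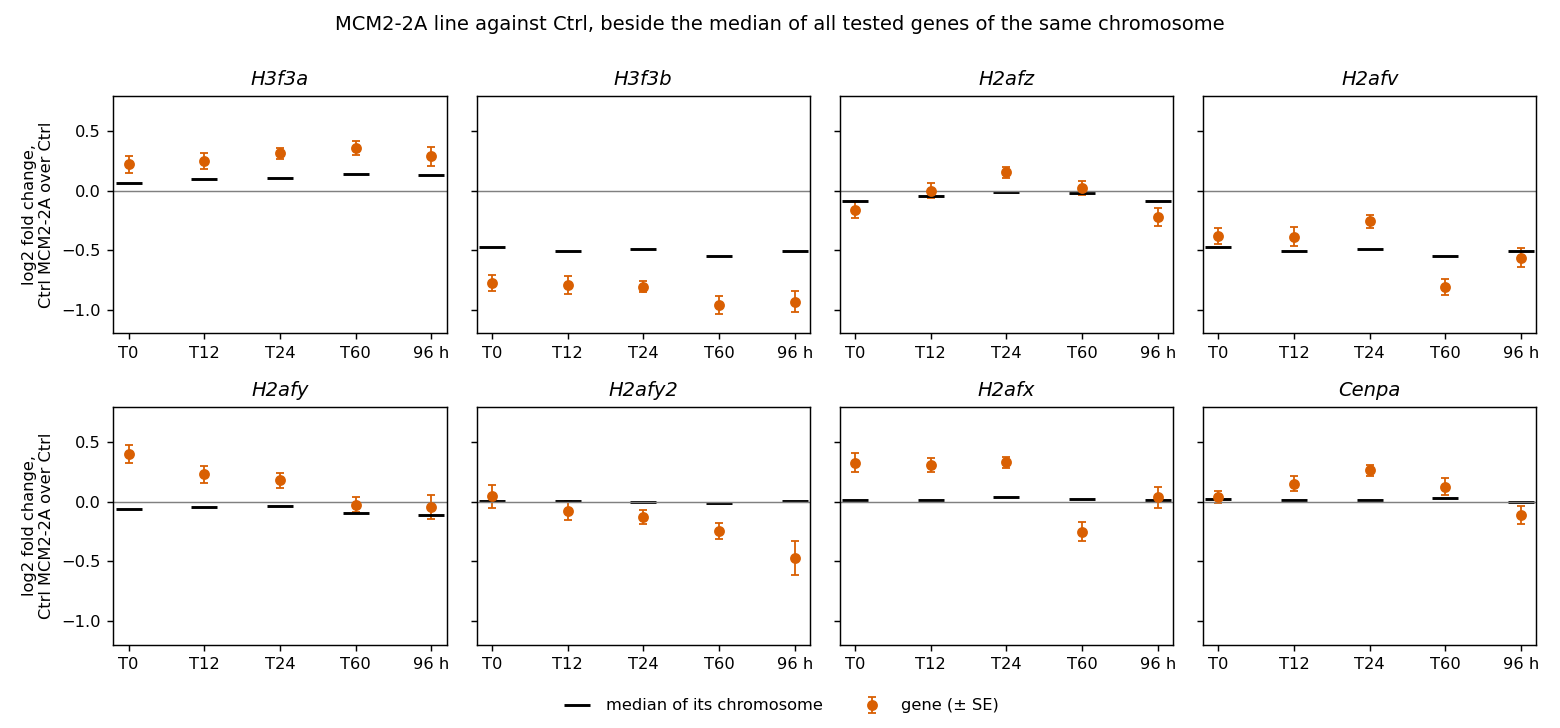
Log2 fold change of each of the 8 genes in Ctrl MCM2-2A over Ctrl with its SE (points) at T0, T12, T24, T60 and 96 h, from edgeR fits of 3 against 3 libraries, beside the median log2 fold change of all tested genes of the same chromosome (bars). H3f3b lies below the chromosome 11 median at all 5 times, H2afv lies above it at T0, T12 and T24 and below it at T60 and 96 h, and H3f3a lies above 0 and above its chromosome 1 median.

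H3f3a, which encodes the same protein as H3f3b, had higher values in Ctrl MCM2-2A, at 358, 316 and 287 CPM against 278, 280.4 and 256 CPM at T0, where the groups did not overlap. It passed at T24 (0.32 ± 0.045, adjusted p = 2.33e-05) and T60 (0.36 ± 0.059, adjusted p = 0.000167). At T0 and T12 the log2 fold changes were 0.22 ± 0.069 (SE, adjusted p = 0.0207) and 0.25 ± 0.066 (SE, adjusted p = 0.0121), which did not pass. Both passed with DESeq2 (adjusted p = 0.00913 and 0.00342), with all groups in the fit (0.00567 and 0.00568) and without a filter (0.00474 and 0.00823), and at T0 leaving out Ctrl MCM2-2A T0 replicate 3 brought an adjusted p of 0.00204. At 96 h it was 0.29 ± 0.083 (SE, adjusted p = 0.0162), and with the replicate number as a block, which pairs the libraries of that experiment, it passed (0.29, adjusted p = 0.00279). Per length, the sum of both genes was 311 ± 4.83 RPKM in Ctrl and 229.6 ± 24.9 RPKM in Ctrl MCM2-2A at T0, and 383 ± 27.8 and 251 ± 12.4 RPKM at T60.

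Of the other genes, H2afx was higher in Ctrl MCM2-2A at T0 (0.33 ± 0.082, adjusted p = 0.00586), T12 (0.31 ± 0.058, adjusted p = 0.00172) and T24 (0.33 ± 0.046, adjusted p = 1.28e-05), and at T60 and 96 h its log2 fold changes of -0.25 and 0.038 did not pass (at T60 DESeq2, no filter and all groups in the fit gave adjusted p of 0.00735, 0.00320 and 0.00922). The T0 call was lost without Ctrl T0 replicate 1, 2 or 3 or Ctrl MCM2-2A T0 replicate 2 (adjusted p = 0.0146, 0.0204, 0.0350 and 0.0144), and the T12 call without Ctrl T12 replicate 1 (0.0164), while leaving out Ctrl T60 replicate 2 made the T60 difference pass (-0.32, adjusted p = 0.00335). H2afy was higher at T0 (0.40 ± 0.074, adjusted p = 0.000869) and Cenpa at T24 (0.27 ± 0.048, adjusted p = 0.000219). H2afy2 was lower at T60 (-0.25 ± 0.068, adjusted p = 0.00886), a call that leaving out any 1 library except Ctrl T60 replicate 2 ended, with adjusted p from 0.0113 to 0.0466, as did TMM on genes only (0.0103), no filter (0.0210) and the filter of 10 counts in every library (0.0128).

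At T0, 1 of the 8 genes was DE, lower, and 4 passed, against 18.9% of all features DE and 33.6% passed. The numbers were 1 and 3 at T12 (14.5% and 24.0%), 1 and 5 at T24 (17.3% and 35.3%), 2 and 4 at T60 (16.9% and 30.2%) and 1 and 2 at 96 h (15.7% and 21.6%). All DE genes among the 8 in these comparisons were lower.

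The balance within each pair was followed as a share per library. The share of H3.3 reads per length that came from H3f3a was 25.1%, 25.9% and 23.7% in Ctrl at T0 and 39.5%, 41.4% and 38.5% in Ctrl MCM2-2A. The lines did not overlap at any of the 5 times, and the difference was 14.9, 14.4, 15.8, 18.2 and 17.7 percentage points at T0, T12, T24, T60 and 96 h. In RA the share went from 24.9% ± 1.08 (SD, n = 3) to 19.4% ± 1.5 at T60 in Ctrl and from 39.8% ± 1.47 to 37.5% ± 0.944 in Ctrl MCM2-2A. The 2-sided exact permutation test of 3 against 3 cannot go below p = 0.1, which each difference between the lines gave.

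The share of H2A.Z reads per length that came from H2afv was followed the same way after its genes had been seen to move apart. In Ctrl it was 12% ± 0.734 at T0, 17.7% ± 0.136 at T12, 20.3% ± 0.636 at T24 and 34.7% ± 0.501 at T60 (SD, n = 3 each), and in Ctrl MCM2-2A 10.5% ± 0.15, 14.1% ± 0.825, 16% ± 0.547 and 23.1% ± 1.05. In dPOLE4 it reached 33.3% ± 0.537 at T60 and in dPOLE4 MCM2-2A 24.1% ± 0.568. At 96 h without RA it was 14.3% ± 0.115 in Ctrl and 11.6% ± 0.221 in Ctrl MCM2-2A. The shares rest on the lengths used: with the longest coding transcripts the rise by T60 in Ctrl was 16.7 percentage points in place of 22.7.

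**Figure D4:**
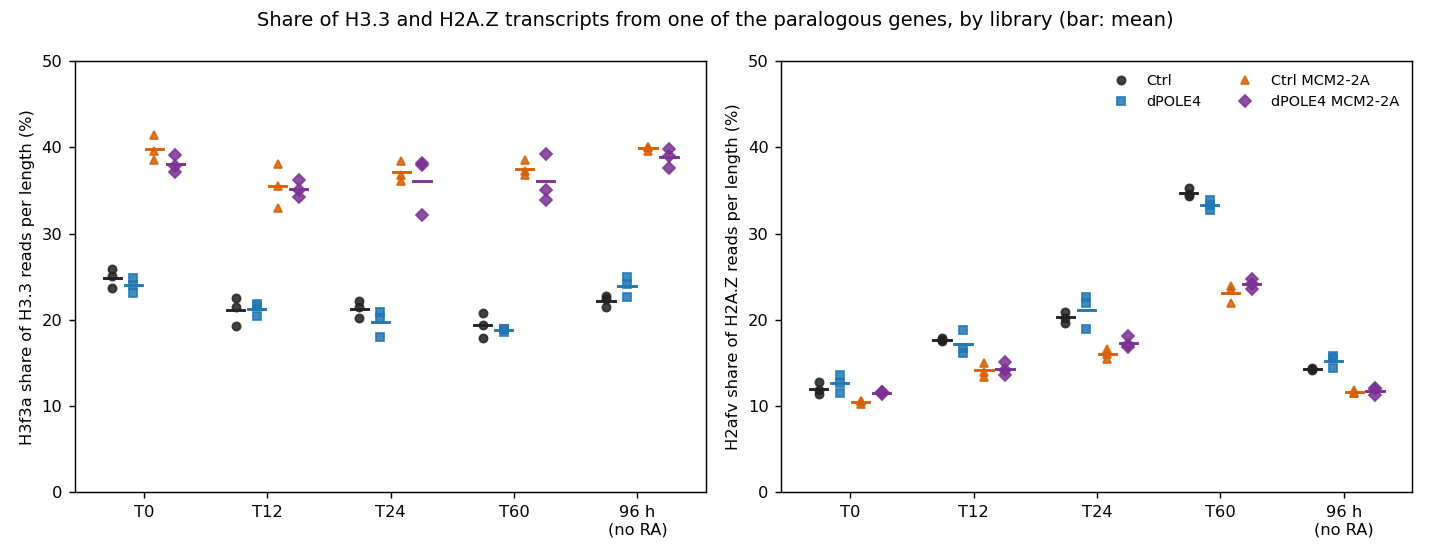
Share of H3.3 reads per length that came from H3f3a (left) and of H2A.Z reads per length that came from H2afv (right), in percent, for each of the 60 libraries (points) with group means (bars), at T0, T12, T24, T60 and 96 h. The MCM2-2A groups lie above the WT groups for H3f3a at every time, and the H2afv share climbs with time in RA to 34.7% in Ctrl and 23.1% in Ctrl MCM2-2A.

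Loss of POLE4 was compared with Ctrl at the same 5 times. In the WT line 0 of the 8 genes were DE and 0 passed at any time, with edgeR or DESeq2, although DESeq2 gave no adjusted p for H2afy2 at T0. The background was 0.0%, 0.0%, 0.0%, 0.193% and 0.0% of features DE at T0, T12, T24, T60 and 96 h. At an unadjusted p below 0.05 the numbers were 0, 0, 0, 5 and 0 of the 8 genes, beside 11.6%, 6.42%, 7.6%, 14.3% and 12.3% of all features. The log2 fold changes lay between -0.24 and 0.15, with SEs of 0.050 to 0.10. At T60 all 8 were below 0, led by H2afv, at 159, 137 and 145 CPM in Ctrl and 116, 129 and 125 CPM in dPOLE4 without overlap, with a log2 fold change of -0.24 ± 0.061 (SE, adjusted p = 0.0685). H2afy2 was at -0.21 ± 0.061 (SE, adjusted p = 0.113) and H2afz at -0.14 ± 0.055 (SE, adjusted p = 0.225). The RA markers and pluripotent markers of these groups had medians of 0.061 and 0.12 with 0 genes passed. Summed neural markers were at 259 to 266 CPM in dPOLE4 and 287 to 314 CPM in Ctrl, without overlap. Primitive endoderm markers were at 216 to 260.2 against 267 to 330.0 CPM. Fibroblast markers were at 265 to 283 against 327 to 454 CPM, and neither list overlapped. Sums of the trophoblast and 2-cell-like markers overlapped. The part of these markers in the values of the 8 genes was not tested.

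In the MCM2-2A line 0 of the 8 genes were DE either, with edgeR or DESeq2, against 0.0715%, 0.404%, 1.02%, 2.25% and 0.304% of features. At an unadjusted p below 0.05 the numbers were 2, 1, 3, 2 and 1, beside 13.5%, 17.6%, 21.1%, 23.3% and 11.5% of all features. H2afy2 passed at T12 and T60, lower in dPOLE4 MCM2-2A, where 0.863% and 3.46% of all features passed. At T12 it was at 31.5, 32.6 and 34.7 CPM in Ctrl MCM2-2A and 25.0, 23.5 and 22.4 CPM in dPOLE4 MCM2-2A, with a log2 fold change of -0.48 ± 0.076 (SE, adjusted p = 0.00698). At T60 it was at 55.3, 54.3 and 61.2 and 40.1, 41.7 and 39.4 CPM, with -0.49 ± 0.076 (SE, adjusted p = 0.00259). The groups did not overlap at T0, T12, T24 or T60. At T0, T24 and 96 h the log2 fold changes were -0.30 ± 0.11 (SE, adjusted p = 0.236), -0.27 ± 0.073 (SE, adjusted p = 0.0416) and -0.43 ± 0.16 (SE, adjusted p = 0.308).

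The T12 call was lost when any 1 of its 6 libraries was left out, with adjusted p from 0.0112 to 0.0485 and log2 fold changes from -0.52 to -0.45. The T60 call was lost without Ctrl MCM2-2A T60 replicate 2 or 3 or dPOLE4 MCM2-2A T60 replicate 2 (adjusted p = 0.0106, 0.0289 and 0.0131). The test of whether the effect differed between the lines passed for 0 of the 8 genes at any time, with edgeR or DESeq2. For H2afy2 the difference (MCM2-2A minus WT) was -0.41 (adjusted p = 0.926), -0.44 (adjusted p = 0.226), -0.35 (adjusted p = 0.201), -0.28 (adjusted p = 0.252) and -0.58 (adjusted p = 1) at T0, T12, T24, T60 and 96 h. Of all features 0.00526%, 0.0159%, 0.0351%, 0.116% and 0.0% passed at those times. Of the 8 genes 2, 1, 2, 2 and 1 had an unadjusted p below 0.05, beside 5.39%, 7.4%, 8.81%, 10.1% and 3.7% of all features.

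The ends of H2afy2 and Aifm2, a gene of the opposite strand, overlap, and it is not given in the sources used here whether strand was used in counting. Aifm2 was at 11.2 ± 1.08 CPM in Ctrl MCM2-2A and 11.8 ± 0.763 CPM in dPOLE4 MCM2-2A at T12, and at 7.98 ± 0.794 and 11.6 ± 0.642 CPM at T60 (mean ± SD, n = 3). In the same comparison at T60, 2 of 8 pluripotent markers were higher and 0 lower (median 0.41), and 2 of 3 neural markers were lower (median -0.87). Of 4 fibroblast markers tested 2 were lower, Col1a2 at -1.72 (adjusted p = 0.000409) and Col1a1 at -0.94 (adjusted p = 0.000499), and of 2 markers of 2-cell-like cells Zscan4c was higher at 0.61 (adjusted p = 0.00901), while 0 of 4 primitive endoderm and 0 of 3 trophoblast markers passed. The part of Aifm2 or of these markers in the H2afy2 result was not tested.

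The second gene with a larger difference in the MCM2-2A line was H2afx at T0, at 497, 418 and 369 CPM in Ctrl MCM2-2A and 282, 349.9 and 349 CPM in dPOLE4 MCM2-2A. The groups did not overlap, but replicate 1 of Ctrl MCM2-2A stood well above the rest, and the log2 fold change was -0.38 ± 0.12 (SE, adjusted p = 0.182), which passed with all groups of the experiment in the fit (-0.39, adjusted p = 0.00229) and without a filter (-0.38, adjusted p = 0.00137). In that comparison the 67 replication-dependent histone genes had a median of -0.54, with 3 passed lower and 0 higher (background 0.0715%). H3f3a did not pass at T60 in this line (-0.18 ± 0.070, adjusted p = 0.134) but did without dPOLE4 MCM2-2A T60 replicate 3 (-0.25, adjusted p = 0.00384).

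**Figure D5:**
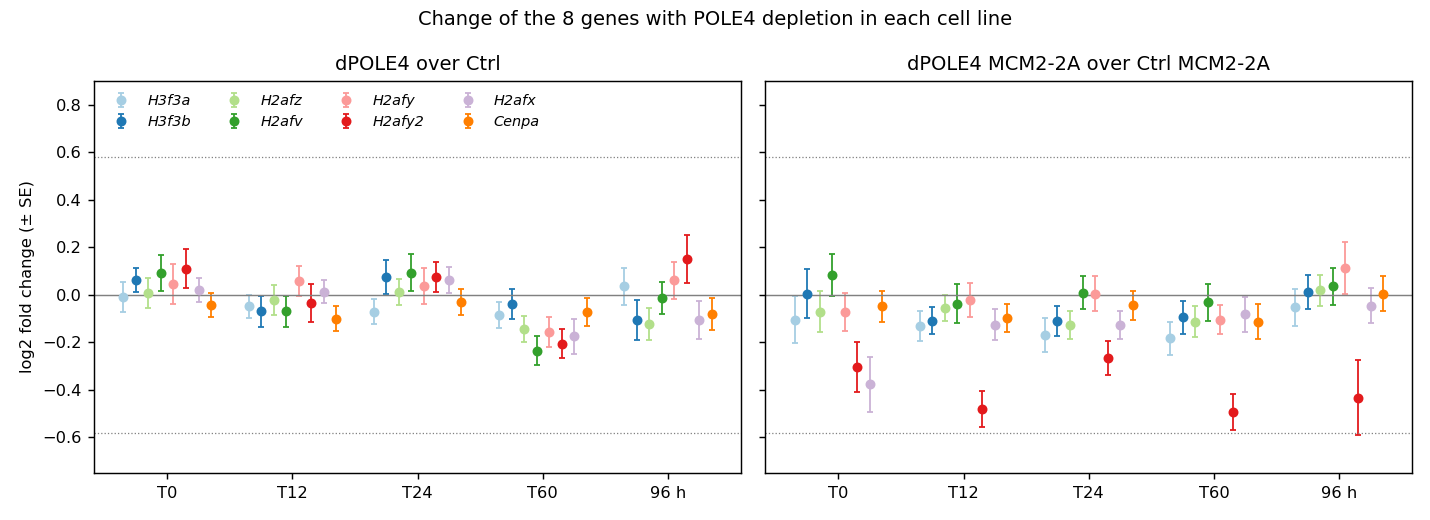
Log2 fold change with its SE of each of the 8 genes in dPOLE4 over Ctrl (left) and dPOLE4 MCM2-2A over Ctrl MCM2-2A (right) at T0, T12, T24, T60 and 96 h, from edgeR fits of 3 against 3 libraries. Dotted lines mark 0.58 in either direction, and no gene reaches them. H2afy2 lies between -0.49 and -0.27 in the MCM2-2A line and between -0.21 and 0.15 in the WT line.

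The factors that place the variants were read in the same fits. Of 7 genes for H3.3 deposition, 1 rose and 5 fell in Ctrl at T60 of RA, where 66.7% of all features passed, with a median of -0.26 beside -0.013 over all features. Atrx, the remodeller that works with DAXX, fell by 1.12 (adjusted p = 4.62e-09) on the log2 scale, and Hira, which names the HIRA complex, was at -0.39 (adjusted p = 9.11e-05). Ubn1, another HIRA complex subunit, rose by 1.01 (adjusted p = 8.07e-09), and the chaperone Asf1a was at -0.29 (adjusted p = 0.00617).

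Of 6 genes for H2A.Z deposition and removal, 1 rose and 3 fell in that comparison, with a median of -0.23, and the share that passed was that of all features (66.7%). Ino80, a remodeller that can take H2A.Z out, was at -1.26 (adjusted p = 1.28e-10) and Znhit1, a subunit of the SRCAP complex, at -0.96 (adjusted p = 5.96e-08). Vps72, the SRCAP and p400 subunit that binds H2A.Z, rose by 0.78 (adjusted p = 2.45e-07), and Anp32e, a chaperone that removes H2A.Z, was at -0.28 (adjusted p = 0.000733). Hjurp, the chaperone gene of CENP-A, was at -0.012 (adjusted p = 0.871) and did not pass. Of 3 partners of H2A.X, the kinase gene Atm was at -0.77 (adjusted p = 6.77e-07) and Baz1b rose by 0.39 (adjusted p = 3.11e-05). Both FACT genes fell, Supt16 at -0.47 (adjusted p = 1.71e-05) and Ssrp1 at -0.26 (adjusted p = 0.000768).

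Upon POLE4 depletion 0 genes of the 5 deposition lists passed at T0, T60 or 96 h in either line, and their medians lay between -0.16 and 0.066. Between the lines, 3 of 7 H3.3 deposition genes were higher in Ctrl MCM2-2A at T0 and 1 lower, with Atrx at -0.44 (adjusted p = 0.000426), Cabin1 at 0.30 (adjusted p = 0.00125), Asf1a at 0.27 (adjusted p = 0.00644) and Daxx at 0.23 (adjusted p = 0.00760), where 33.6% of all features passed. At T60 0 of the 7 were higher and 1 was lower (background 30.2%), with Daxx at -0.30 (adjusted p = 0.00112), Atrx at -0.017 (adjusted p = 0.882) and Cabin1 at 0.024 (adjusted p = 0.770). Supt16 was higher at T0 at 1.06 (adjusted p = 9.09e-08) and at T60 at 0.98 (adjusted p = 5.37e-08). Genes of the other lists went in both directions at T60, with Hjurp at 0.32 (adjusted p = 0.000374) and Vps72 at -0.29 (adjusted p = 0.00845). The mutation and the clone cannot be told apart for these genes either.

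The 67 replication-dependent histone genes, whose messages lack a poly(A) tail and are kept by rRNA depletion, were set beside the 8. In Ctrl at T60 of RA 25 rose and 6 fell, with a median of 0.16, and in Ctrl MCM2-2A 2 rose and 31 fell, with a median of -0.29, where 66.7% and 64.0% of all features passed. Ctrl MCM2-2A against Ctrl gave 3 higher and 2 lower at T0 (median -0.088), 0 and 54 at T60 (median -0.52) and 2 and 27 at 96 h (median -0.33), beside 33.6%, 30.2% and 21.6% of all features in either direction. With POLE4 depletion 0 of them passed in the WT line at T0, T60 and 96 h (background 0.0%, 0.415% and 0.0%), and in the MCM2-2A line 19 were lower and 0 higher at T60 (median -0.36; background 3.46%). The 8 replacement variant genes had medians of -0.14 in the comparison of the lines at T60 and -0.11 in that of POLE4 depletion at T60.

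Across the group means of the 16 groups of the 24 h and RA experiment, H2afy and H2afz had a Pearson correlation of -0.91 in log2 CPM, H2afy and H2afy2 of 0.84, H2afz and H2afv of -0.61, H3f3b and H2afv of 0.78 and H3f3a and H3f3b of -0.65. The groups share lines and time points, so these are descriptions. H3f3b and H2afv both lie on chromosome 11, whose median was lower in Ctrl MCM2-2A, and its part in their correlations was not tested. Among 9537 protein-coding genes with a mean of at least 10 CPM, the patterns most like those of the members were Rps19 (r = 0.932) and Swi5 (r = 0.887) for H3f3a, Xlr3b (r = 0.991) and Eif4enif1 (r = 0.984) for H3f3b, Alg13 (r = 0.978) and Gabbr1 (r = 0.976) for H2afz, and Ccdc34 (r = 0.985) and Kctd2 (r = 0.981) for H2afv. They were Bicc1 (r = 0.986) and Mxd4 (r = 0.984) for H2afy, Ctdsp2 (r = 0.987) for H2afy2, Focad (r = 0.816) and Tdp1 (r = 0.806) for H2afx, and Nek1 (r = 0.909) and Pck2 (r = 0.897) for Cenpa. H2afx and Cenpa had the smallest range over the 16 group means, 1.36 and 1.28 times from lowest to highest, and H2afy2 the largest at 4.05 times.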

How the data were processed

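Total RNA was depleted of rRNA and made into strand-specific paired-end libraries, with 3 biological replicates per group. The authors trimmed reads with cutadapt 4.2, aligned them to mm10 with STAR keeping multiple alignments, and deposited raw counts of GENCODE M25 genes and repeat subfamilies from TEcount, neither normalized nor pooled. The strand setting of the counting is not given in the sources used here. RA times follow the sample titles, since the protocol text lists other hours. The tables hold 56633 features, of which 55487 are genes, and 55141 genes had a symbol in a GENCODE M21 annotation of mm10. No pair of replicates agreed within sampling noise, and all 60 libraries were kept.

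Features of the groups compared passed filterByExpr (at its minimum count of 10 and minimum total of 15), were scaled with TMM and tested in R 4.3.3 with edgeR 4.0.16 (quasi-likelihood, Benjamini-Hochberg adjustment over all features). Interactions used 4 groups. DESeq2 1.42.0, named in the study's methods, was an alternative. Shares were compared by exact permutation in Python 3.11.15 with scipy 1.17.1. The tests were checked on simulated data. Standard errors cover counting error and the variation between replicates.

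The members and lists were chosen with earlier results of these data known. Genes named are the 8 members, the 2 genes most alike to each, and of each list at most 4 that passed with the largest change. Of these, 2 genes are not reported here. Hjurp, Aifm2 and the copies of H3f3a were named after their values were seen. Replicate numbers were taken to pair libraries at 96 h (mean r of deviations 0.22, 0.25 and 0.16). In the other experiment the mean r was up to 0.19, for dPOLE4 MCM2-2A against Ctrl MCM2-2A at T0. Alternatives were other scalings and filters, a replicate block, all groups in 1 fit, no fold change cutoff and each library left out. Coding transcript lengths, the H2A.Z share and chromosome medians were added after the data were seen.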

Additional observations from a re-analysis of the deposited data

Results flagged for a closer look

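The RA response of 3 genes differed between Ctrl MCM2-2A and Ctrl by edgeR's interaction test over all features. The difference of log2 fold changes was -0.45 for H2afv (adjusted p = 0.00442), with a rise of 0.99 in Ctrl and 0.57 in Ctrl MCM2-2A. It was -0.45 for H2afy (adjusted p = 0.00254), with 1.27 and 0.85, and -0.61 for H2afx (adjusted p = 0.00194), with 0.30 and -0.28. H2afv and H2afy kept their direction, and each of the 3 calls was lost in at least 1 fit that left out a library.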

How the results depend on the processing

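Without the fold change cutoff the number of the 8 genes called was 3 at T12, 5 at T24 and 7 at T60 in dPOLE4 for RA, 1 at T12 and 1 at T60 for dPOLE4 MCM2-2A, 4, 3, 5, 4 and 2 at T0, T12, T24, T60 and 96 h for Ctrl MCM2-2A against Ctrl, and 3 for the difference of the RA response. Without a filter it was 2 at 96 h between the lines. With 1 library left out the number DE was 1 to 2 at T12 of RA (2 without Ctrl T0 replicate 3 or Ctrl T12 replicate 2), 1 to 2 between the lines at 96 h (2 without Ctrl 96h replicate 3), and 0 to 1 for the difference of the RA response, where H2afx was past both thresholds and 5 of the 12 fits gave 0 (without Ctrl T0 replicate 3, Ctrl T60 replicate 1, Ctrl MCM2-2A T0 replicate 1 or Ctrl MCM2-2A T60 replicate 2 or 3). DESeq2, both other scalings, the stricter filter and all groups in 1 fit left every such count within 1.5 times.

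Of the single values, 3049 kept their side of the threshold, 37 gained and 56 lost the call. Among the 3049, 129 that were past the threshold in neither fit changed sign within 1 SE. The sign turned for H2afv with dPOLE4 at T0 (-0.0054 without dPOLE4 T0 replicate 1, up to 0.15 without dPOLE4 T0 replicate 2) and for H3f3b with dPOLE4 at T24 (-0.015 without dPOLE4 T24 replicate 2, up to 0.13 without dPOLE4 T24 replicate 3), neither of which passed the test. As a share of counts the difference of H3f3a between the lines at 96 h was 18.7 percentage points. The H2A.Z share rose with RA at T60 by 21.7, 19.7 and 11.9 points in counts (Ctrl, dPOLE4, dPOLE4 MCM2-2A). With the longest coding transcript it rose by 3.87, 5.70 and 16.7 at T12, T24 and T60 in Ctrl, and by 15.1, 8.76 and 8.79 at T60 in dPOLE4, Ctrl MCM2-2A and dPOLE4 MCM2-2A. Between the lines it was -1.03, -2.45, -2.99, -8.94 and -1.78 at the 5 times. The cause was not tested beyond the lengths themselves.

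With the replicate block no count of DE genes moved by over 1.5 times. The numbers were taken to pair the libraries only at 96 h, where H3f3a between the lines gained the call (adjusted p = 0.00279) and no other call of the 8 genes changed. Elsewhere the libraries share only a number: under the block Cenpa (RA, T60 in dPOLE4, adjusted p = 0.0110), H2afy2 (dPOLE4 MCM2-2A, T12, adjusted p = 0.0623), H2afv (lines, T12, adjusted p = 0.0256) and H2afx (lines, T12, adjusted p = 0.0176) were not past the threshold, and H2afx (RA, T60 in Ctrl MCM2-2A, 0.00437), H3f3a (lines, T0, 0.00286), H2afz (lines, T24, 0.00956) and H2afx (lines, T60, 0.00212) were.

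The libraries give levels relative to the RNA counted, MCM2-2A is 1 clone, and an exact permutation of 3 against 3 libraries cannot give p below 0.1. Levels per length rest on the transcript model: with coding transcripts 100 of 160 group levels moved by over 1 SD.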
